A study of Mus musculus with 10 samples.

Results

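The colony-stimulating factor (CSF) receptors and ligands measured here are 7 genes, taken by name from the 24033 gene names used: the ligands Csf1 and Il34, their shared receptor Csf1r, the receptor chains for GM-CSF (Csf2ra, Csf2rb and Csf2rb2) and the G-CSF receptor Csf3r. All 7 were listed in every library, and 6 of them passed the filter on low values (at least 0.5 RPKM in at least 3 libraries), as did 13621 genes in all. Il34 did not pass. RPKM is reads per kilobase of gene length and per megaread of the library, so levels can be set roughly side by side between genes. That length fell short of the exonic length in GENCODE M21 for Csf2rb (4765 against 7277 bases) and Csf2ra (1849 against 2871). It also did for Csf1r (3875 against 5774) and Csf1 (4422 against 5281). The gap was small for Il34 (1859 against 1959) and Csf2rb2 (4739 against 4740). For Csf3r the length used was the longer (4047 against 3609). Small gaps in level between genes therefore depend on the annotation. RNA came from adult microglia of C57BL/6 mice aged 3 to 5 months, isolated with magnetic beads against CD11b. There were 4 wild-type libraries (TREM2+/+; numbers 1 and 10 female, 4 and 7 male), 3 heterozygous libraries (TREM2+/-; 5 and 11 female, 8 male) and 3 knockout libraries (TREM2-/-; 6 female, 9 and 12 male). No treatment is named, and the labels give neither the part of Trem2 that the allele removes nor whether a library came from 1 mouse or a pool. P-values therefore measure the spread between these libraries, which may in part be technical.

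Microglia depend on signalling through CSF1R, a receptor tyrosine kinase of the mononuclear phagocyte lineage, for survival and proliferation. CSF1 and IL-34 bind the same receptor although their amino acid sequences are unrelated; in the brain IL-34 is known mainly from neurons and CSF1 from glia. The GM-CSF receptor pairs a ligand-binding alpha chain with the common beta chain that it shares with the IL-3 and IL-5 receptors, and mice carry a second beta-chain gene, Csf2rb2, whose product serves IL-3. TREM2 signals through the adaptor TYROBP (DAP12), which CSF1R signalling is also known to engage.

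Depth, as reads recovered from the RPKM, fell into 6 libraries of 17.29 M to 22.07 M (M, megareads; wild type 1, 4 and 7, heterozygous 5 and 8, knockout 6) and 4 of 36.43 M to 44.23 M (wild type 10, heterozygous 11, knockout 9 and 12). Trem2 matched the labels. Its mean (± SD) was 191.5 ± 31.1 RPKM across the 4 wild-type, 93.9 ± 9.98 across the 3 heterozygous and 24.55 ± 3.52 across the 3 knockout libraries, with no overlap of genotypes. Of the microglial list, 10 of 10 markers were present in every library and summed to 8991 to 11260 RPKM. Knockout library 6 stood apart in neutrophil and monocyte markers. The 12 neutrophil markers present in the files (of 13 listed) summed to 2303 RPKM there, to 371.9 and 381.6 in the other 2 knockout libraries, to 144.2 to 358.3 in heterozygous and to 104.2 to 223.7 in wild-type libraries. None of the 12 was at 0 in all libraries of a genotype. The 9 monocyte markers summed to 189.6 RPKM in knockout library 6 and to 41.05 and 44.5 in knockout libraries 9 and 12. They summed to 24.6 to 42.8 in heterozygous and to 16.2 to 33.0 in wild-type libraries. The 7 border macrophage markers summed to 95.3 RPKM in knockout library 6, within the wild-type range of 84.7 to 137.3. Fewer cells of a type and less RNA per cell cannot be told apart in such bulk libraries.

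The receptor genes sat high in the order of levels and 1 ligand sat near the limit of detection. Averaged over the 10 libraries, the RPKM level was 1641 for Csf1r, 131.2 for Csf3r, 92.3 for Csf2ra, 69.0 for Csf1, 27.5 for Csf2rb, 21.35 for Csf2rb2 and 0.431 for Il34. Csf1r ranked 18 of the 13621 genes tested and was 12.5 times the level of Csf3r. The order of neighbours held in all 10 libraries for Csf1r above Csf3r, Csf3r above Csf2ra, Csf1 above Csf2rb and Csf2rb2 above Il34. It held in 8 of 10 for Csf2ra above Csf1 and in 9 of 10 for Csf2rb above Csf2rb2, so the order of those neighbours varied between libraries. No test between genes was run.

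**Figure D1:**
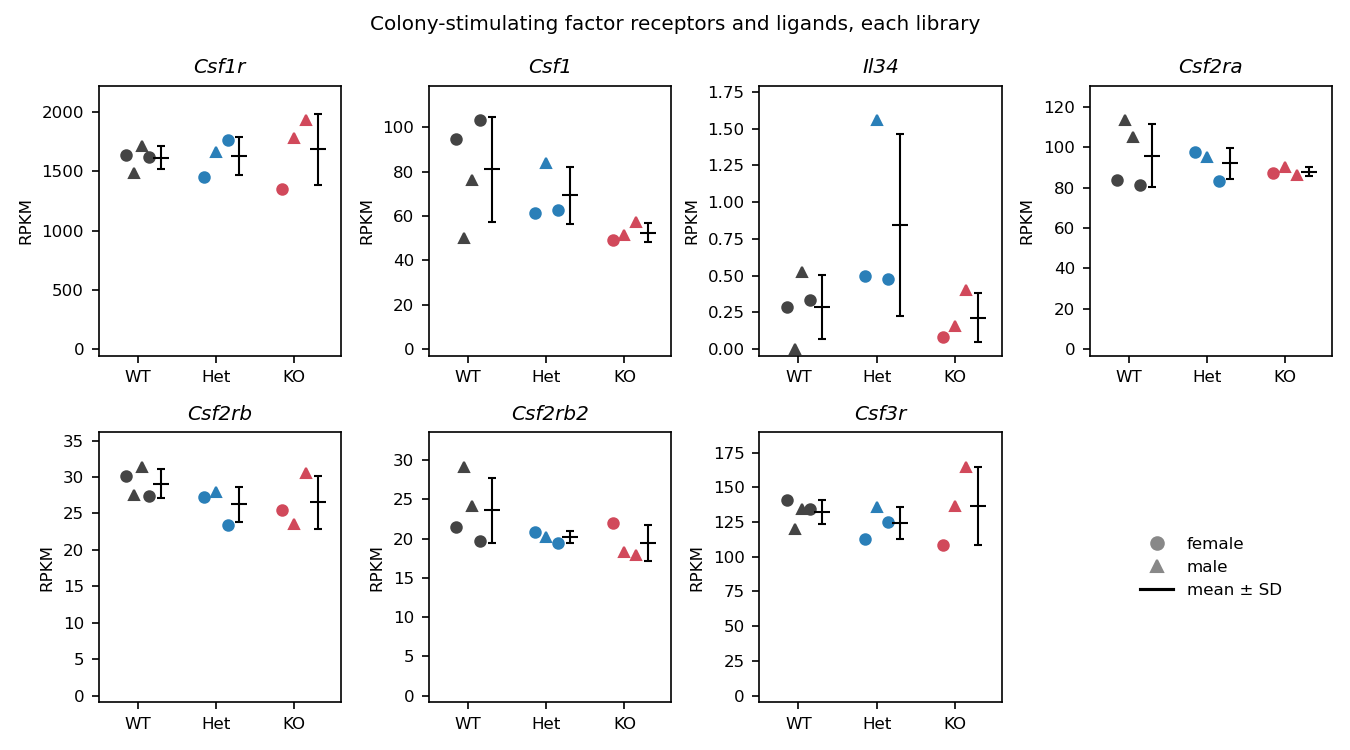
RPKM of each gene in each library (y axis, linear) by genotype (x axis: WT wild type, Het heterozygous, KO knockout); circles are female and triangles male libraries, and the bar beside each group is mean ± SD. Csf1 in the 3 knockout libraries lies between 49.1 and 57.1 RPKM, close to the lowest wild-type library (49.9) and below the other 3.

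Promoter sequence from RefSeq (GRCm38.p6) is shown for 4 of the 7 genes, Csf1 and the receptor genes Csf2ra, Csf2rb2 and Csf3r. No promoter window was examined for Il34 or for the receptor genes Csf1r and Csf2rb. Each run is the 250 bases before the RefSeq start, 5′ to 3′ on the gene's strand. Capitals mark matches, on either strand, to GAGGAA (the core bound by PU.1, the myeloid factor encoded by Spi1) and GGGCGG (the Sp1 box). The letters TGANTCA, bound by AP-1, had no match on either strand of these windows, against 6.75% of all windows. TATAAA, the core promoter box, had none either (12.4% of all windows). Nor did TTGCNNAA, bound by C/EBP factors (9.56% of all windows).
Csf1 (chr3:107760470-107760719, minus strand): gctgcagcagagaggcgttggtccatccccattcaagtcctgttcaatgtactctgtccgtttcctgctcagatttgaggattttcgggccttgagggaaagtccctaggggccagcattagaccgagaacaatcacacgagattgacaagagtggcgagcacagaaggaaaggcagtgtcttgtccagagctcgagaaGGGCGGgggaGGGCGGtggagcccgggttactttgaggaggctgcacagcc
Csf2ra (chr19:61228419-61228668, minus strand): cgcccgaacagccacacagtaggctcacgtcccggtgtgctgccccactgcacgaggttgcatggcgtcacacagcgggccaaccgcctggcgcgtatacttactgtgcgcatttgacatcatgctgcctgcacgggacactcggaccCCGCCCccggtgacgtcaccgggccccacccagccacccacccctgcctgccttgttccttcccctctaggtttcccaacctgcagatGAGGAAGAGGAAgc
Csf2rb2 (chr15:78305722-78305971, minus strand): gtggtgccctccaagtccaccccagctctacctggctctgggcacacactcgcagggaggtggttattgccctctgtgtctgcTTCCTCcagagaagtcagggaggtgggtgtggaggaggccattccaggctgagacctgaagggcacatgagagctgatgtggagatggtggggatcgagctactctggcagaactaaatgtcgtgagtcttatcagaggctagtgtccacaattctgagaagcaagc
Csf3r (chr4:126024409-126024658, plus strand): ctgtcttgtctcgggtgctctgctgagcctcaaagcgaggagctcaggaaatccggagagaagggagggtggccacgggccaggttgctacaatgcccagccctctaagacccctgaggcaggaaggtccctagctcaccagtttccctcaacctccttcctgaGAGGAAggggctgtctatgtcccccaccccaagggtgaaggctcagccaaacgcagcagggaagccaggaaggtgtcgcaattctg
GAGGAA was present in the 3 receptor windows shown, and it was not in the Csf1 window. It lay at -14 and -8 (side by side) before the start of Csf2ra, at -167 on the opposite strand of Csf2rb2 and at -86 of Csf3r. It occurs in 23.3% of the 32851 promoter windows of this length. The Csf1 window held 2 copies of GGGCGG, at -51 and -41, and the Csf2ra window held 1 on the opposite strand at -102. GGGCGG occurs in 32.7% of windows. The windows of Csf2ra and Csf3r reach into the gene as GENCODE M21 places it, since the RefSeq starts lie downstream of the GENCODE starts. A match in letters is a description and was not tied to any factor here.

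Csf1, which encodes the secreted and membrane-bound growth factor CSF1 (M-CSF), had the largest difference of the 6 tested genes between knockout and wild type. In GRCm38 (GENCODE M21) it occupies chr3:107741048-107760469, minus strand, in 12 exonic blocks (ENSMUSG00000014599.10). Its level was 94.6, 49.9, 76.2 and 103.1 RPKM in wild-type libraries 1, 4, 7 and 10, from 4522 to 20569 reads. It was 61.2, 84.1 and 62.8 in heterozygous libraries 5, 8 and 11, and 49.1, 51.4 and 57.1 in knockout libraries 6, 9 and 12. The 3 knockout libraries were low and close together, the wild-type libraries were spread over a 2.07-fold range, and library 4 brought the wild type into overlap with the knockout. Means (± SD) were 81.0 ± 23.6 RPKM over the 4 wild-type libraries, 69.4 ± 12.8 over the 3 heterozygous ones (85.7% of wild type) and 52.5 ± 4.12 over the 3 knockout ones (64.9%).

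In knockout against wild type, Csf1 differed by log2 -0.55 (SE 0.22, 95% confidence interval -1.03 to -0.07) on the log2(RPKM + 0.5) scale, with an unadjusted p = 0.0278 and an adjusted p = 0.963 by limma over 13621 genes. It thus did not pass the threshold of 0.05. An unadjusted p under 0.05 was reached by 5.13% of all genes tested in this comparison in either direction, and with a lower level by 1.81%. The count of 1 of 6 CSF genes is read beside the share in either direction, since the test is two-sided. The exact permutation test on Csf1 alone gave p = 0.114 (two-sided, 4 against 3 libraries, smallest possible 0.0286; 0.60 after Benjamini-Hochberg adjustment over 21 tests of 7 genes and 3 comparisons). The value rested unevenly on single libraries: it was log2 -0.81 without wild-type library 4 (unadjusted p = 0.000404, adjusted p = 0.666 by limma) and -0.41 without knockout library 6 (unadjusted p = 0.152, adjusted p = 0.818). Depth differed between libraries, so the levels are also listed within the shallower and the deeper libraries. These sets hold too few libraries of each genotype to tell depth from genotype. Among the 6 shallower ones the knockout library (49.1 RPKM) was below the 3 wild-type (49.9 to 94.6) and 2 heterozygous libraries (61.2 and 84.1), and among the 4 deeper ones the 2 knockout libraries (51.4 and 57.1) were below the heterozygous (62.8) and the wild-type library (103.1).

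Heterozygous Csf1 lay between the other genotypes, without a difference that passed. It stood at log2 -0.21 against wild type (SE 0.22, limma adjusted p = 1.00), with a 95% confidence interval from -0.68 to 0.27 that covers both no change and a fall to near the knockout level. Leaving out 1 library moved this value between log2 -0.50 (without heterozygous library 8) and -0.056 (without wild-type library 10), and by over 1.5 times also without wild-type library 1 or 4 or heterozygous library 5 or 11. Knockout against heterozygous gave log2 -0.34 (SE 0.24, limma adjusted p = 0.999), and the 3 knockout libraries were all below the 3 heterozygous ones. Groups that do not overlap in this direction were found for 3.02% of genes tested, and the exact permutation p of 0.10 is the smallest that 3 against 3 libraries allow. It was log2 -0.0073 without heterozygous library 8 and -0.19 without knockout library 6. The slope per lost Trem2 copy was log2 -0.27 (SE 0.10, unadjusted p = 0.0221, adjusted p = 0.85 by limma); 1.97% of genes had a negative slope with an unadjusted p under 0.05.

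Among the 6 tested CSF genes, Csf1 had the widest spread between libraries of 1 genotype when the 3 genotypes were pooled, though not within the knockout, where its coefficient of variation was 7.84% against 17.8% for Csf1r and 20.7% for Csf3r. Its pooled within-genotype standard deviation was 0.338 on the log2 scale, more than in 95.4% of the 1317 genes with a mean level within 2-fold of its own, whose median was 0.149. The other 5 tested genes stood at 0.141 to 0.188, with 37.7% to 67.6% of genes of like level having less spread. The 7 astrocyte markers summed to 31.8 to 47.9 RPKM in wild-type, 37.0 to 55.1 in heterozygous and 35.5 to 40.6 in knockout libraries. These ranges overlap, and their part in the Csf1 levels was not tested.

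**Figure D2:**
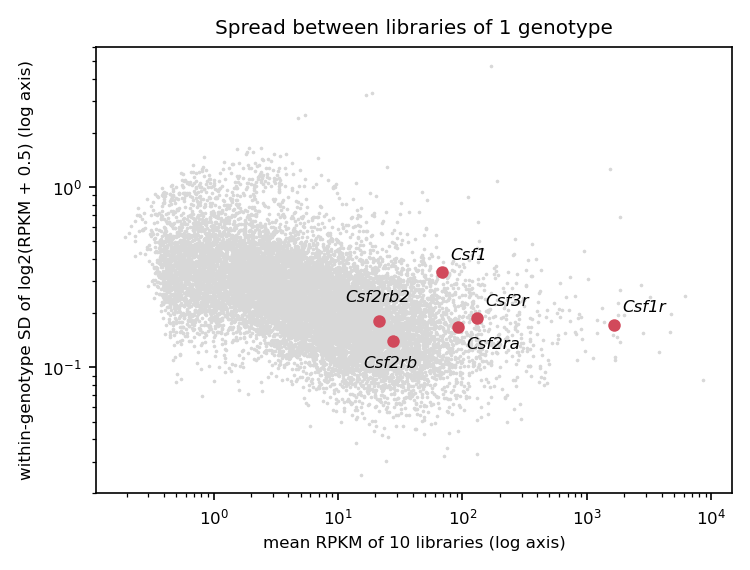
Standard deviation of log2(RPKM + 0.5) between libraries of 1 genotype (y axis, log) against mean RPKM over the 10 libraries (x axis, log); grey points are the 13621 genes tested and red points the 6 CSF genes. Csf1 lies at 0.338, above the other 5 (0.141 to 0.188).

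Il34, the second ligand of CSF1R, was barely detected. It occupies chr8:110741829-110805924, minus strand (ENSMUSG00000031750.15). Wild-type libraries 1, 4, 7 and 10 held 0.286, 0, 0.525 and 0.334 RPKM, from 12, 0, 18 and 28 reads. Heterozygous libraries 5, 8 and 11 held 0.495, 1.56 and 0.478 RPKM from 17, 51 and 33 reads, and knockout libraries 6, 9 and 12 held 0.0836, 0.155 and 0.401 RPKM from 3, 11 and 30 reads. A count of 0 in wild-type library 4 allows up to 3 reads, or 0.0787 RPKM, for counting error only. Heterozygous library 8 was the highest of the 10 and the other 9 were all below 0.53 RPKM. Knockout libraries were all below the heterozygous ones. The same order was found for 3.02% of the genes that passed the filter on low values, which do not include Il34. Wild-type libraries overlapped with both, and exact permutation p-values adjusted over the 21 tests were 0.60 or higher in each comparison. In a limma fit without the filter on low values, Il34 stood at log2 -0.96 in knockout against heterozygous (SE 0.34, adjusted p = 0.999 over 19983 genes) and 0.78 in heterozygous against wild type (SE 0.31, adjusted p = 1.00). The 7 neuronal markers summed to only 3.26 to 5.62 RPKM in any library, with 3.83 in heterozygous library 8. The 4 choroid plexus and ependyma markers summed to 1716 RPKM in heterozygous library 8, the highest of the 10, and their part in the Il34 level was not tested.

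In the 9 libraries with Il34 reads, the Csf1 level was 54.0 to 587.7 times the Il34 level. The log2 ratio averaged 7.94 in wild type (n = 3), 6.58 in heterozygous (n = 3) and 8.24 in knockout (n = 3). Wild-type library 4, with Il34 at 0 and Csf1 at 49.9 RPKM, was left out. Even with Il34 at its counting limit of 0.0787 RPKM, its ratio would be above that of every other library. The order of the wild-type and knockout averages therefore depends on leaving it out. Knockout against wild type had an exact permutation p of 0.70, and both comparisons with the heterozygous libraries had 0.10, the smallest possible for 3 against 3, and the smallest value adjusted over 6 tests was 0.171.

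Csf1r, the tyrosine kinase receptor of both ligands, was near the same level in all genotypes. The gene occupies chr18:61100598-61132149, plus strand, in 24 exonic blocks (ENSMUSG00000024621.16). Wild-type libraries 1, 4, 7 and 10 held 1636, 1485, 1716 and 1624 RPKM, heterozygous libraries 5, 8 and 11 held 1453, 1660 and 1767, and knockout libraries 6, 9 and 12 held 1353, 1781 and 1931. The knockout held both the lowest and the highest library of the 10, so the genotypes overlapped entirely. Mean levels (± SD) were 1615 ± 96.0 over the 4 wild-type, 1627 ± 159.5 over the 3 heterozygous and 1688 ± 300.4 over the 3 knockout libraries. Csf1r differed by log2 0.03 in knockout against wild type (SE 0.14, 95% confidence interval -0.28 to 0.34, limma adjusted p = 0.999) and by 0.03 in heterozygous against wild type (SE 0.14, limma adjusted p = 1.00). The sign of the knockout value turned with median-ratio scaling (-0.0058) and with depth as a covariate (-0.04). A p that misses the threshold does not show that levels were equal, and the interval covers falls to log2 -0.28 and rises to 0.34. The antisense neighbour Hmgxb3 shares 873 exonic bases with Csf1r in GENCODE M21 and 14.3% of the 50-base words of Csf1r transcripts; it stood at 13.2 to 19.8 RPKM, and whether strand was used in counting is not stated in these sources.

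**Figure D3:**
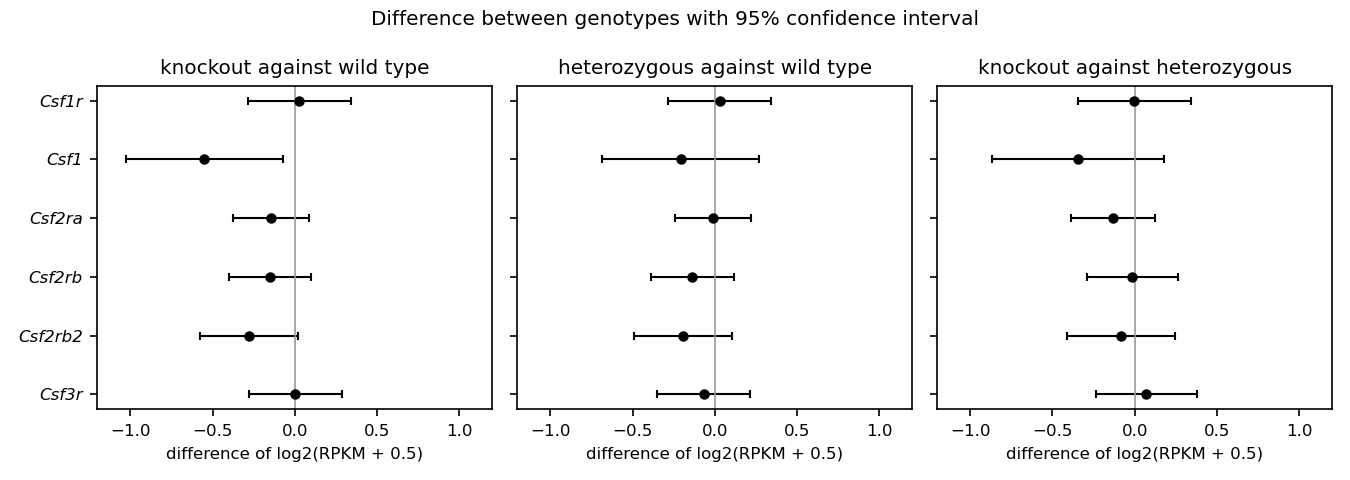
Differences of log2(RPKM + 0.5) (x axis) for the 6 tested CSF genes in the 3 genotype comparisons, with 95% confidence intervals from the limma fit. The interval of Csf1 in knockout against wild type runs from -1.03 to -0.07, and the other 17 intervals cover 0.

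Csf2ra encodes the alpha chain that binds GM-CSF, a growth factor of granulocytes and macrophages. The gene occupies chr19:61223957-61228429, minus strand, in 9 exonic blocks (ENSMUSG00000059326.7). Its level was 83.8, 113.3, 104.8 and 81.3 RPKM in wild-type libraries 1, 4, 7 and 10, 97.7, 95.2 and 83.4 in heterozygous libraries 5, 8 and 11, and 87.0, 90.2 and 86.0 in knockout libraries 6, 9 and 12. The wild type was split by sex, with both male libraries above 104 and both female libraries below 84 RPKM, and the knockout libraries lay between them. Knockout against wild type gave log2 -0.14 (SE 0.11, limma adjusted p = 0.991) and heterozygous against wild type -0.01 (SE 0.11, limma adjusted p = 1.00). The knockout value was log2 -0.075 without wild-type library 4 and -0.24 without knockout library 6.

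Csf2rb, the common beta chain, and Csf2rb2, the IL-3-specific beta chain, lie next to each other on chromosome 15 in opposite orientation. Csf2rb2 spans 78282507 to 78305721 on the minus strand (ENSMUSG00000071714.7) and Csf2rb 78325752 to 78353847 on the plus strand (ENSMUSG00000071713.6), with 20030 bases between them. The genes share 892 distinct 50-base words, 12.3% of those in Csf2rb transcripts and 18.4% of those in Csf2rb2 transcripts, so the split of reads between them is uncertain and their sum is given too. Csf2rb was at 30.1, 27.5, 31.4 and 27.4 RPKM in wild-type libraries 1, 4, 7 and 10, at 27.3, 28.0 and 23.4 in heterozygous libraries 5, 8 and 11, and at 25.4, 23.5 and 30.6 in knockout libraries 6, 9 and 12. Csf2rb2 was at 21.5, 29.2, 24.2 and 19.7 RPKM in the same wild-type libraries, at 20.9, 20.3 and 19.4 in the heterozygous and at 22.0, 18.3 and 17.98 in the knockout libraries. Male wild-type library 4 was the highest for Csf2rb2 and the single library in which Csf2rb2 exceeded Csf2rb, and the genotypes overlapped for both genes.

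In knockout against wild type Csf2rb differed by log2 -0.15 (SE 0.11, limma adjusted p = 0.994) and Csf2rb2 by -0.28 (SE 0.14, limma adjusted p = 0.977). Csf2rb was at log2 -0.058 without knockout library 9, at -0.24 without knockout library 12 and at -0.29 with sample quality weights (unadjusted p = 0.0211, adjusted p = 0.582 by limma). Csf2rb2 was at log2 -0.16 without wild-type library 4 and at -0.47 without knockout library 6 (limma adjusted p = 0.913 and 0.731). Its slope per lost copy was log2 -0.14 (SE 0.06, unadjusted p = 0.0472, adjusted p = 0.909 by limma). Summed over both beta chains, the mean level (± SD) was 52.7 ± 4.35 RPKM over the 4 wild-type, 46.4 ± 3.10 over the 3 heterozygous and 45.95 ± 3.596 over the 3 knockout libraries. The sum differed by log2 -0.20 in knockout and -0.18 in heterozygous against wild type (exact permutation p = 0.114 in each, adjusted 0.171 over 6 tests). Csf2rb made up 48.5% to 63.0% of the sum in any library, and Csf2ra stood at 1.62 to 2.16 times the sum.

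Csf3r encodes the G-CSF receptor, best known from neutrophils and their precursors, where it drives granulocyte production. The gene occupies chr4:126024550-126044440, plus strand, in 17 exonic blocks (ENSMUSG00000028859.14). Wild-type libraries 1, 4, 7 and 10 held 140.7, 119.9, 134.1 and 134.5 RPKM, heterozygous libraries 5, 8 and 11 held 112.6, 135.5 and 125.0, and knockout libraries 6, 9 and 12 held 108.3, 136.5 and 164.8. As with Csf1r, the lowest and the highest library were both knockouts. The difference was log2 0.0035 in knockout (SE 0.13, 95% confidence interval -0.28 to 0.29, limma adjusted p = 0.999) and -0.07 in heterozygous against wild type (SE 0.13, limma adjusted p = 1.00), and the first of these turned sign under sample quality weights (-0.04), depth as a covariate (-0.06) and median-ratio scaling (-0.03). Knockout library 6, with the highest sum of neutrophil markers, had the lowest Csf3r level of the 10 libraries, and leaving it out gave a knockout difference of log2 0.18. GENCODE transcripts of other genes hold 10.7% of the 50-base words of Csf3r, mostly those of a clone-named gene.

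**Figure D4:**
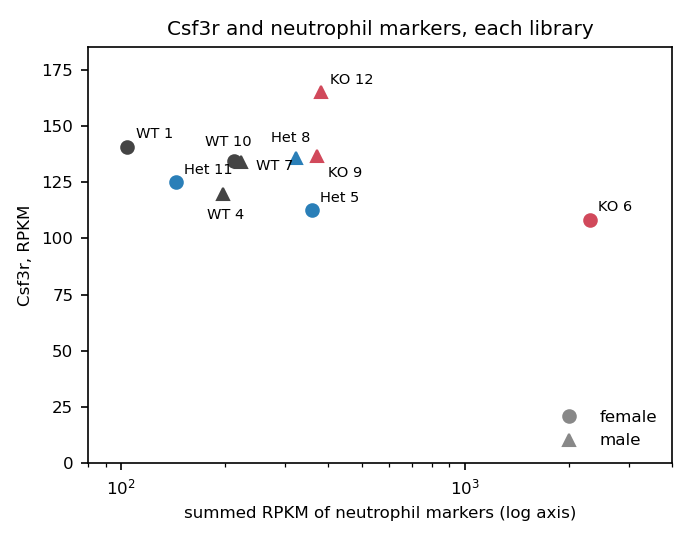
Csf3r in RPKM (y axis, linear) against the summed RPKM of 12 neutrophil markers (x axis, log) in each library; colours are genotypes, circles female and triangles male. Knockout library 6 lies at 2303 on the x axis and at 108.3 RPKM of Csf3r, the lowest of the 10.

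Over the comparison of knockout with wild type, 0 of the 6 tested CSF genes passed by limma, where 0.00734% of genes tested passed (Trem2 alone) and 5.13% had an unadjusted p under 0.05 in either direction. By limma-voom on recovered reads 0 of 6 passed as well. Of the 6, 4 were lower and 2 higher in the knockout, where 57.2% of all genes tested were higher and their median was log2 0.03. The 2 higher ones, Csf1r (log2 0.028) and Csf3r (log2 0.0035), turned sign under other settings. In heterozygous against wild type 0 of 13621 genes passed (0.0%; 375 genes or 2.75% at an unadjusted p under 0.05), and 0 of 6 CSF genes passed or had an unadjusted p under 0.05. Trem2 itself, at 49.0% of wild type with no overlap, did not pass there (log2 -1.02, SE 0.14, adjusted p = 0.238 by limma), so 0 calls do not show that these levels were alike. In knockout against heterozygous 0 of 6 passed, where 0.00734% of genes did, and 0 of 6 had an unadjusted p under 0.05 (3.35% of genes tested). No tested CSF gene had knockout libraries apart from all wild-type ones (4.59% of genes tested) or heterozygous apart from all wild-type ones (4.53%). These comparisons share libraries and are not independent of each other.

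Females and males were also compared, with genotype in the fit, since the labels give the sex of each library. Csf2ra was lower in the 5 female libraries (86.6 ± 6.52 RPKM, SD, n = 5) than in the 5 male ones (97.9 ± 11.1, SD, n = 5) by log2 -0.20 (SE 0.09, unadjusted p = 0.0489, adjusted p = 0.919 by limma), which did not pass. In this comparison 0 of 6 CSF genes passed, against 0.044% of genes tested, and 1.83% of genes were lower in females at an unadjusted p under 0.05. Csf1 in wild type was at 94.6 and 103.1 RPKM in the 2 female and at 49.9 and 76.2 in the 2 male libraries. Heterozygous libraries had the opposite order (61.2 and 62.8 in females, 84.1 in the male), and knockout libraries stood at 49.1 in the female and at 51.4 and 57.1 in the males. For 4 of the 6 tested CSF genes (Csf1r, Csf2ra, Csf2rb2 and Csf3r) knockout and wild type did not overlap within either sex and stood in opposite order in females and males, as they did for 20.5% of all genes tested. The females include 1 knockout library, number 6, so sex and this library cannot be told apart.

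Other genes of the CSF pathways were counted from 4 lists. Of 14 further ligands and receptors of the family, 6 passed the filter. Of these, 0 reached an adjusted p under 0.05 between genotypes by limma, where at most 0.00734% of all genes tested did. Csf2, which encodes GM-CSF, reached at most 0.157 RPKM in any library, Csf3, which encodes G-CSF, at most 0.228, and Il3 was at 0 in all 10. The most abundant of this list were Kitl, the ligand of KIT (7.75 ± 1.43 RPKM in wild type, SD, n = 4; 8.98 ± 2.15 in knockout, SD, n = 3), the FLT3 ligand gene Flt3l (5.26 ± 1.85 and 5.64 ± 0.669) and Pdgfrb, a receptor gene of pericytes (2.11 ± 0.452 and 2.25 ± 0.551). In the knockout the 6 tested genes had a median of log2 0.13, with 4 positive and 2 negative, beside 0.03 over all genes tested.

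Among 28 genes of signalling close to CSF1R, all of them tested, 0 reached an adjusted p under 0.05 between genotypes by limma. At most 0.00734% of all genes tested did so in any genotype comparison. In knockout against wild type 16 were positive and 12 negative (median log2 0.01), and 1 of 28 had an unadjusted p under 0.05, beside 5.13% of all genes tested, which is not a result about the list. That gene was Ccnd1, which encodes cyclin D1, a driver of the G1 phase known to respond to CSF1. Its mean level (± SD) was 56.05 ± 3.46 RPKM over the 4 wild-type libraries (52.5 to 59.5), 61.0 ± 2.33 over the 3 heterozygous ones (59.5 to 63.7) and 69.8 ± 6.70 over the 3 knockout ones (63.2 to 76.6). The knockout libraries were above all wild-type libraries, as was the case for 2.99% of genes tested, and the difference was log2 0.34 (SE 0.08, unadjusted p = 0.00171, adjusted p = 0.913 by limma). Tyrobp, the DAP12 adaptor gene shared with TREM2, had a wild-type mean of 622.3 ± 63.6 RPKM and a knockout mean of 680.5 ± 93.4 (log2 0.13, SE 0.13), the Src-family kinase gene Lyn at 228.2 ± 12.7 and 224.3 ± 19.2 (log2 -0.02, SE 0.10), and Inpp5d, which encodes the phosphatase SHIP1, at 133.5 ± 18.1 and 129.0 ± 16.5 (log2 -0.05, SE 0.13). In heterozygous against wild type 1 of 28 had an unadjusted p under 0.05, near the 2.75% of all genes tested. It was Dok1, a docking protein gene at low level (1.94 ± 0.276 RPKM in wild type, 2.94 ± 0.652 in heterozygous; log2 0.46, SE 0.18, limma adjusted p = 1.00).

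The JAK-STAT branch carries signals of the GM-CSF and G-CSF receptors. Of its 13 listed genes, 0 reached an adjusted or unadjusted p under 0.05 between genotypes by limma. Of all genes tested, 5.13% reached the unadjusted threshold in knockout and 2.75% in heterozygous against wild type, and 3.35% in knockout against heterozygous. A count of 0 of 13 is near these shares and is not a result about the list. In the knockout 8 were positive and 5 negative (median log2 0.0093), and in the heterozygous libraries 11 were positive and 2 negative (median 0.10, beside 0.00099 over all genes). Its most abundant genes were the survival gene Mcl1 (418.4 ± 93.1 RPKM in wild type), the kinase gene Jak1 (92.9 ± 9.42) and the feedback inhibitor Socs3 (80.9 ± 9.23), at log2 -0.03, -0.0071 and -0.05 in the knockout. Of 13 transcription factor genes known to act on Csf1r and CSF receptor genes, 0 reached an adjusted or unadjusted p under 0.05 by limma. This count is read beside the same shares of all genes tested. In the knockout 6 were positive and 7 negative (median log2 -0.0049). The immediate early genes Jun (1160 ± 29.9 RPKM in wild type) and Fos (416.9 ± 103.5) were among the most abundant, at log2 0.06 and 0.02 in the knockout.

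Genes whose levels followed each CSF gene most closely were taken from 7080 tested genes with a mean of at least 5 RPKM, as the 3 with the highest Pearson correlation over the 10 libraries. These are descriptions: the 10 libraries share genotype, sex and depth differences. For Csf1 they included Tfip11, a splicing factor gene (r = 0.946, Spearman 0.939), and the cytokine gene Tnf (r = 0.932, Spearman 0.952). Tnf stood at 115 RPKM on average and at log2 -0.35 in knockout against wild type (unadjusted p = 0.0683 by limma). For Csf1r they were Nucb1 (r = 0.972), Themis2 (r = 0.964) and Phka1 (r = 0.956), and for Csf3r Kif21b (r = 0.957), Sall3 (r = 0.957) and Rnf123 (r = 0.955). For Csf2ra they were Zdhhc9 (r = 0.893), the lymphoid and myeloid factor gene Ikzf1 (r = 0.874) and C5ar2 (r = 0.871). For Csf2rb they were Ccdc88b (r = 0.899), Ttc28 (r = 0.887) and Fam214a (r = 0.862), and for Csf2rb2 Dynll2 (r = 0.925), Ttc7b (r = 0.92) and Mff (r = 0.914).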

How the data were processed

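RNA-seq of bead-isolated microglia was deposited as 1 table of RPKM values per library. Per the submitters' processing notes, STAR, HTSeq, edgeR, limma and build mm10 were used (versions, order, annotation and settings: not given in the sources used here). Deposited RPKM are the authors' values. Of 24060 listed names, 27 written like dates were left out. RPKM steps gave whole reads (tolerance 0.0005 reads) for all 19983 genes above 0, and these reads served for depth and for limma-voom only.

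Genes with at least 0.5 RPKM in 3 libraries (13621) were fitted as log2(RPKM + 0.5) in limma 3.58.1 (R 4.3.3) on all 10 libraries, with genotype and sex as terms, trended moderation and Benjamini-Hochberg adjustment at 0.05. A log2 difference on this scale understates the change of low genes. The procedure was tested on simulated data. Single values were also compared by exact two-sided permutation tests. Named genes were the 7 CSF genes and Trem2, the 3 most abundant genes of each pathway list, list genes called or with an unadjusted p under 0.05, and the 3 genes most correlated with each CSF gene. Of these, 2 genes are not reported here. The CSF genes and the lists were chosen with earlier results of these data known. Alternatives changed the pseudocount, filter, covariates, weights, scaling, fit and libraries. Intervals and floors cover counting error only where they come from reads. Library numbers named samples and paired none.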

Additional observations from a re-analysis of the deposited data

Results flagged for a closer look

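For 4 CSF genes the knockout and wild-type libraries stood in opposite order in the 2 sexes: the female knockout library lay on one side of both female wild-type libraries, and both male knockout libraries on the other side of both male wild-type libraries. The same pattern was found for 2793 of the 13621 genes tested (20.5%). The only female knockout library is number 6, which also had the highest neutrophil and monocyte marker sums, so sex and this library cannot be told apart. The female minus male difference of the knockout effect was estimated in a limma fit chosen after seeing the data. A single library stands for the female knockout, so only the size of the difference is given and no call is read from it. For Csf2rb2 it was log2 0.63 (SE 0.21). For Csf3r it was log2 -0.59 (SE 0.20). For Csf1r it was log2 -0.49 (SE 0.24) and for Csf2ra log2 0.38 (SE 0.18).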

How the results depend on the processing

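No CSF gene passed under any of the settings run: of 524 values under alternatives, 485 kept their sign, 39 took the opposite sign and 0 passed, with a lowest adjusted p of 0.226 by limma. Csf1 stayed lower in the knockout than in wild type in all of them. Counts over all genes were 2 in knockout against wild type with limma-voom, with sample quality weights and with depth as a covariate, and 1 to 3 when each library was left out (3 without knockout library 6). Knockout against heterozygous had 2 with depth as a covariate. The slope had 2 with limma-voom and with weights, and 1 to 3 with libraries left out. The cause was not tested.

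Signs turned as follows (log2). In knockout against wild type, Csf3r was -0.043 with weights, -0.030 with median-ratio scaling and -0.058 with the depth covariate, and Csf1r -0.0058 with median-ratio scaling and -0.043 with the depth covariate. In heterozygous against wild type, weights gave Csf1r -0.0070 and Csf2ra 0.034. In knockout against heterozygous, Csf1r was 0.042 with no covariate, 0.0015 with limma-voom and 0.038 with weights, Csf2rb 0.011 with no covariate and 0.020 with the depth covariate, and the latter gave Csf2rb2 0.019 and Csf3r -0.017. In females alone, a setting chosen after seeing the data, knockout against wild type gave Csf1r -0.27, Csf2ra 0.076, Csf2rb2 0.097 and Csf3r -0.34.

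Leaving out each library in turn gave ranges across 0. In knockout against wild type these were -0.056 to 0.20 for Csf1r, -0.12 to 0.18 for Csf3r and -0.18 to 0.84 for the ratio of Csf1 to Il34. In heterozygous against wild type they were -0.055 to 0.086 for Csf1r, -0.089 to 0.053 for Csf2ra and -0.14 to 0.0036 for Csf3r. In knockout against heterozygous they were -0.079 to 0.19 for Csf1r, -0.10 to 0.071 for Csf2rb, -0.042 to 0.27 for Csf3r and -0.072 to 0.050 for the summed beta chains. In females against males they were -0.068 to 0.35 for Csf1 and -0.22 to 0.011 for Csf2rb2. No paired analysis was possible because the genotypes share no library numbers. With 0 to 51 reads per library, depth limits Il34, and 3 or 4 libraries a genotype limit the other 6 genes.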

Other observations

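The Csf1 effect in each sex was estimated in a fit of genotype and sex cells chosen after seeing the data. Knockout against wild type was log2 -1.001 in females (SE 0.22), where 1 knockout library (49.1 RPKM) stands against 94.6 and 103.1 RPKM in wild type. That library, number 6, is assumed to vary like the other groups, and it also had the highest neutrophil marker sum, so sex and this library cannot be told apart. In males it was log2 -0.19 (adjusted p = 0.72 by limma), with 51.4 and 57.1 RPKM in the knockout and 49.9 and 76.2 in wild type. The difference between the sexes was log2 -0.81. It rests on the single female knockout library and is not read as an effect of sex. The level of Csf1r relative to Csf1 was on average (± SD) 21.3 ± 6.33 over the 4 wild-type, 23.9 ± 4.20 over the 3 heterozygous and 32.0 ± 3.90 over the 3 knockout libraries, with the knockout (27.5 to 34.7) overlapping the wild type (15.75 to 29.8).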
